A study of Homo sapiens with 34 samples.

Results

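The 38 genes described here are HOX genes of the 4 human clusters, HOXA on chromosome 7, HOXB on chromosome 17, HOXC on chromosome 12 and HOXD on chromosome 2. They were taken by name from RefSeq (GRCh38.p14), which lists 19974 protein-coding genes in all, with 10 genes each in HOXA and HOXB and 9 each in HOXC and HOXD. All peak regions lying within a gene or 5 kb of it were then collected, and the gene with its 5 kb on either side is called its window.

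The data came from DLD1 (DNTCF) cells, a colorectal adenocarcinoma line that carries a transgene for dominant negative TCF7L2 under tetracycline control. TCF7L2 is the DNA-binding partner that lets β-catenin activate Wnt targets. Cells of both groups carried the transgene and were kept in zeocin and blasticidin; 1 group was left uninduced and the other received 1 µg/mL doxycycline for 24 h. Chromatin immunoprecipitation with sequencing was done for acetylated lysine 27 of histone H3 (H3K27ac) and for RNA polymerase II (Pol II), with 2 samples per antibody and condition and 1 input per condition, of 34 samples in the series. Cells given doxycycline without the transgene are not among these groups, so the drug and the transgene cannot be told apart. Per the labels, both samples of a group share 1 peak list, so the 4 lists have no spread between replicates, and differences are given without p-values. All 9 colorectal epithelial marker genes had an H3K27ac region without induction, at a median window coverage of 34.4%. For haematopoietic, stromal, endothelial and neuronal markers the medians were 11.1%, 6.63%, 10.4% and 2.41%. Of these 12 markers of other cell types COL1A2 alone had no region. Coverage is a percent of the window, and the markers were not matched for length, from 4052 bp for KRT18 to 588027 bp for SYT1. Single genes overlapped between the lists, with CD3E at 31.2% and LGALS4 at 11.5%.

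HOX genes encode homeodomain transcription factors that assign identity along the body axis of the embryo. Within a cluster they lie in the order in which they act, from anterior genes (groups 1 to 3) over central genes (groups 4 to 8) to posterior genes (groups 9 to 13), and the posterior groups pattern the hindgut and limbs. H3K27ac marks active promoters and enhancers, and Pol II lies on genes being transcribed or ready to be. HOX clusters that are not in use are held silent by Polycomb complexes.

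Before the values, 4 promoters show the range met in the clusters. Each is the 250 bases before a RefSeq start (GRCh38.p14), written 5′ to 3′ on the gene's strand, with CpG dinucleotides in capitals. HOXA4 lay wholly inside H3K27ac regions of the uninduced list, HOXD4 had no region of either mark, 1 of the 7 HOXA3 starts touched Pol II in the induced list alone, and HOXD1 touched Pol II in the uninduced list alone.
HOXA4, chr7:27130758-27131007, minus strand: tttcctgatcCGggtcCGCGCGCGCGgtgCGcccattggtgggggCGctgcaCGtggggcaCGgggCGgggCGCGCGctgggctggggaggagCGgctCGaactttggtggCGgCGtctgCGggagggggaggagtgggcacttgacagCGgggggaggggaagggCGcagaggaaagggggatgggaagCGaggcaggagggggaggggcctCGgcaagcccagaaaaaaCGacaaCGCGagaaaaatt
HOXD4, chr2:176151300-176151549, plus strand: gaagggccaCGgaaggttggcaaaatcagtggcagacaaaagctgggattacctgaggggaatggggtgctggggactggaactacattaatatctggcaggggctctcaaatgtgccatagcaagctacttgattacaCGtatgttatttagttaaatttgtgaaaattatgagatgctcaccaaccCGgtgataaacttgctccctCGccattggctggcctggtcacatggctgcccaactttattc
HOXA3, chr7:27119596-27119845, minus strand: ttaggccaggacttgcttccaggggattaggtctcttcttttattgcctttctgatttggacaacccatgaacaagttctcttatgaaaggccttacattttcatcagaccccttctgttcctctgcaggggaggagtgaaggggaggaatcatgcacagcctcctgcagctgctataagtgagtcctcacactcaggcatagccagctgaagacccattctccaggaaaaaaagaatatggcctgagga
HOXD1, chr2:176188418-176188667, plus strand: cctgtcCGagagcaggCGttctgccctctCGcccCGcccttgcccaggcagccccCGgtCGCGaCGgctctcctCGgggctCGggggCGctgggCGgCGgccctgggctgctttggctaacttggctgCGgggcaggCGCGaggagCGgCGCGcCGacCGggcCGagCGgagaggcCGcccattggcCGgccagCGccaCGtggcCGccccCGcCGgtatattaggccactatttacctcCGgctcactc
The HOXA4 sequence held 26 CpG and the HOXD4 sequence 4. No CpG lay in the HOXA3 stretch, and 31 lay in that of HOXD1. HOXA4 was 1 of 13 HOX genes with a window wholly under H3K27ac without induction, and HOXD4 was 1 of 3 with none in either list. CpG content did not follow H3K27ac across the starts. The HOXA3 stretch without CpG touched H3K27ac in both lists, and HOXD1, with the most CpG of the 4, lay under an H3K27ac region of low fold. The stretches of HOXD10 and HOXD11 held 23 CpG each, and their starts touched no region.

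H3K27ac lay almost without a break from HOXA4 to HOXA13 and from HOXB3 to HOXB9, over separate stretches of HOXC, and was scarce in HOXD. Regions of the uninduced list covered 92.6% of the joined windows of HOXA, 80.4% of HOXB, 26.7% of HOXC and 7.78% of HOXD. In the induced list the values were 92.3%, 80.6%, 25.5% and 7.35%, so the order of the clusters was the same and HOXC showed the largest difference. Pol II followed the same order, at 83.2%, 79.0%, 12.8% and 4.00% uninduced and 80.8%, 79.2%, 9.26% and 3.39% induced. The windows of neighbouring genes overlap and many genes share a region, so the 38 genes are not independent of one another.

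**Figure D1:**
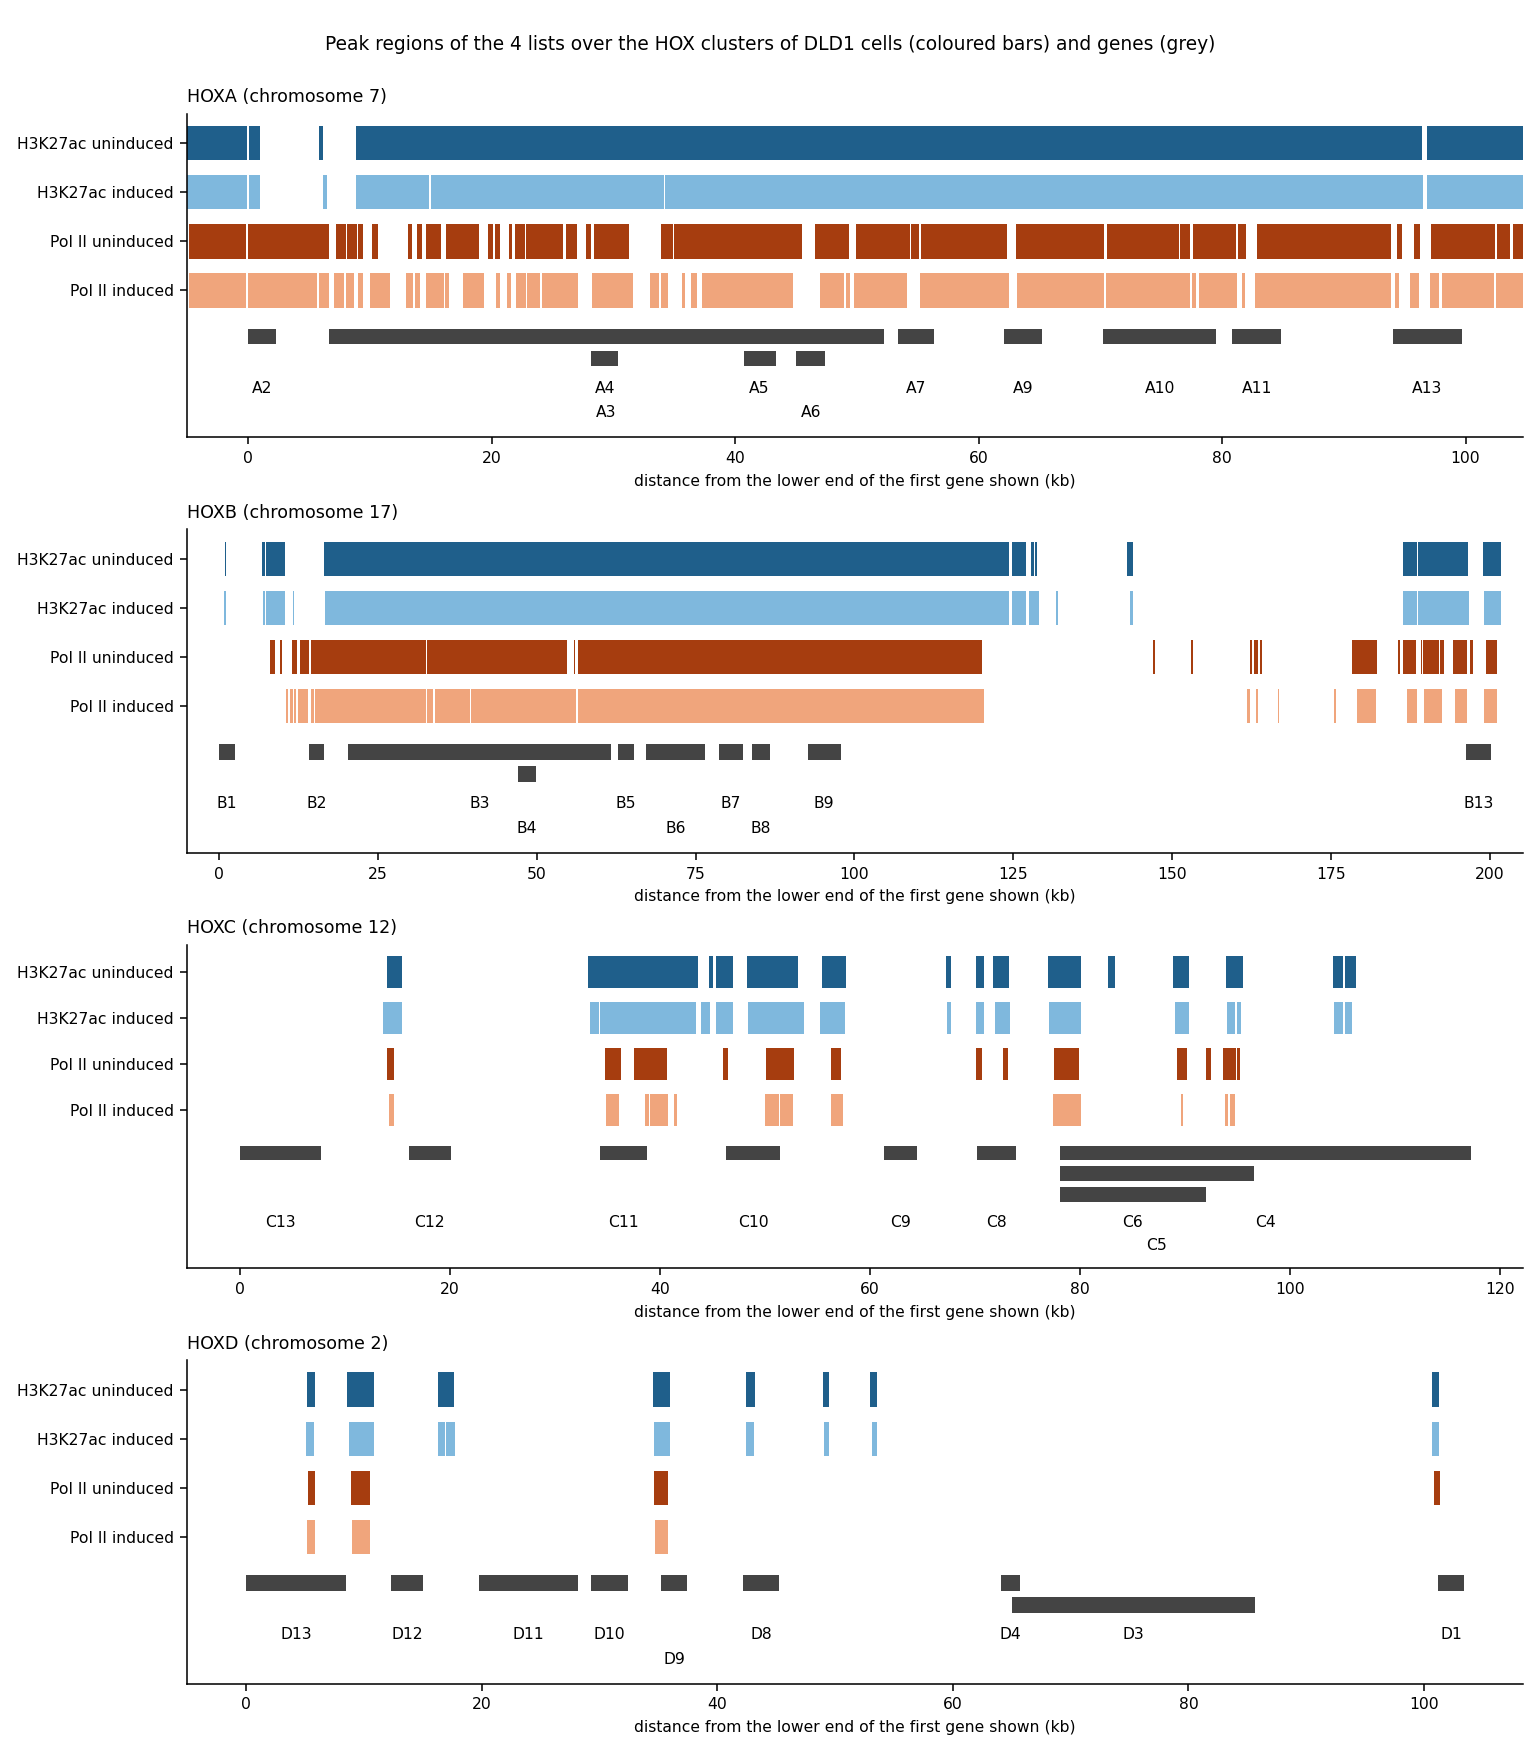
Peak regions of the 4 lists (blue for H3K27ac, orange for Pol II, lighter for induced cells) along each cluster, with the genes in grey; the x axis is the distance in kb from the lower end of the first gene shown. H3K27ac is near-continuous from HOXA4 to HOXA13 and both marks from HOXB3 to HOXB9, Pol II over HOXA is split into 35 and 38 regions, HOXC carries separate regions, and HOXD3 and HOXD4 lie in a stretch with none.

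In both H3K27ac lists 35 of the 38 HOX genes had a region in their window, against 79.2% of all protein-coding genes in the uninduced list and 78.9% in the induced list. Pol II regions were present at 32 HOX genes without induction and 31 with it, against 76.3% and 74.7% of all genes. The 3 genes with neither mark in any list were HOXC13, a regulator of hair and nail keratins, and HOXD3 and HOXD4, which pattern the cervical vertebrae. HOXB1, a hindbrain gene, and HOXD8 and HOXD11 had H3K27ac but no Pol II region in either list. HOXD1 had a Pol II region in the uninduced list alone.

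The presence of a region set HOX genes less apart than its extent did. The median HOX window was covered to 54.7% by H3K27ac without induction and to 55.6% with it, against 6.96% and 6.80% over all genes. For Pol II the medians were 36.5% and 30.7%, against 4.48% and 3.52%. HOX genes are short, with a median length of 3.79 kb against 24.2 kb over all genes, so their windows are smaller. Among the 5658 genes under 10 kb, the median H3K27ac coverage was 10.96% in the uninduced list, and it was 63.03% for the 32 HOX genes of that length.

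Windows covered over 90% were rare in the genome and frequent here. In the uninduced H3K27ac list 61 genes, 0.305% of all, passed that level and 15 of them were HOX genes; in the induced list it was 71 genes, 0.355%, and again 15 HOX genes. These 15 were the same in both lists: HOXA4, HOXA5, HOXA6, HOXA7, HOXA9, HOXA10, HOXA11, HOXA13 and the run from HOXB3 to HOXB9. For Pol II 12 HOX genes passed it among 140 genes (0.701%) in the uninduced list and 10 among 96 (0.481%) in the induced list. HOXA2, HOXA9, HOXA10 and HOXB3 to HOXB9 passed it in both Pol II lists, and HOXA5 and HOXA7 in the uninduced list alone. Short genes passed this level more often. Among genes under 10 kb it was 0.866% uninduced and 0.990% induced for H3K27ac, and 2.26% and 1.57% for Pol II. Of the 32 HOX genes of that length 14 passed it in each H3K27ac list, and 11 and 9 in the uninduced and induced Pol II lists. The level of 90% was chosen after the values were seen.

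**Figure D2:**
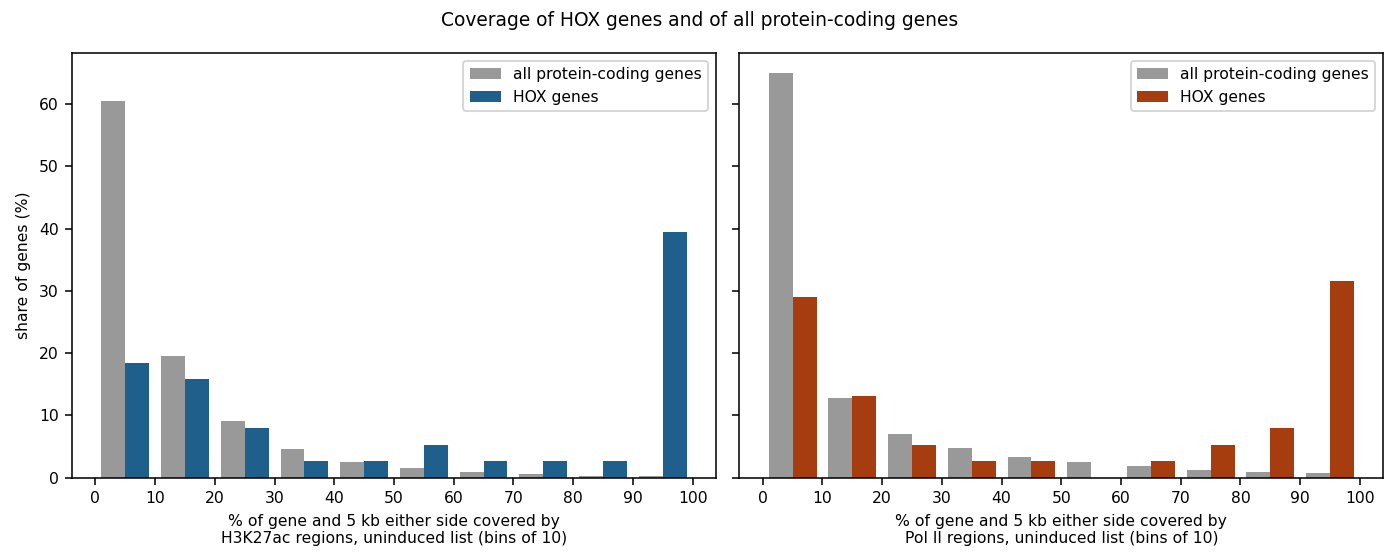
Share of genes (y axis, percent) by the percent of the gene window covered (x axis, bins of 10) in the uninduced H3K27ac and Pol II lists, for all 19974 protein-coding genes (grey) and the 38 HOX genes (colour). All genes pile up in the lowest bin, while HOX genes are split between both ends. For H3K27ac 15 HOX genes lie in the highest bin and 7 in the lowest, and for Pol II 12 and 11. In the induced Pol II list, not shown, it was 10 and 12.

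Pooled over the clusters the central genes had the highest median, but this did not hold in each cluster. The median H3K27ac coverage of the uninduced list was 49.9% for the 7 anterior genes, 100% for the 15 central genes and 43.6% for the 16 posterior genes. Pol II had 76.9%, 86.7% and 17.3%. The classes are not separate stretches. The anterior HOXA3 entry, 45574 bp long, spans the central genes HOXA4, HOXA5 and HOXA6, and the HOXB3 entry, 41372 bp long, spans HOXB4. In HOXD the central genes were below the posterior ones, at 4.98% against 11.6% for H3K27ac and 0 against 9.70% for Pol II without induction. In HOXA the Pol II medians of central and posterior genes were 89.2% and 90.5% uninduced and 77.0% and 89.5% induced. The low posterior medians come from HOXC and HOXD, since in HOXA and HOXB each of the 6 posterior genes but HOXB13 was covered over 97% by H3K27ac in both lists.

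**Figure D3:**
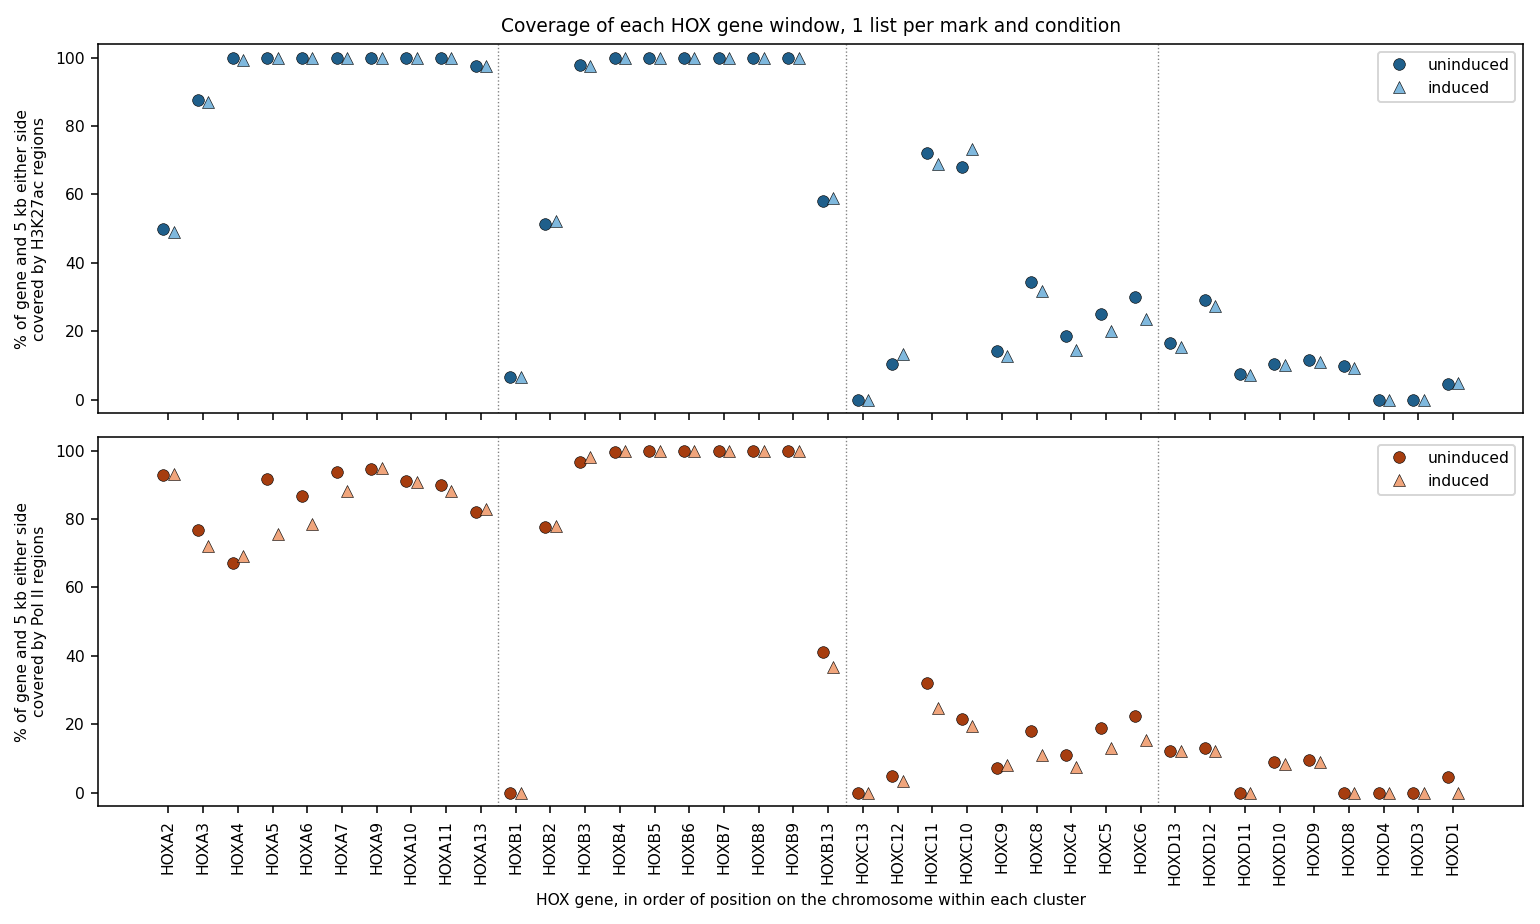
Percent of each HOX gene window (the gene and 5 kb on either side) covered by H3K27ac regions (upper panel) and Pol II regions (lower panel), with circles for uninduced and triangles for induced cells and dotted lines between clusters. Each point is 1 list that serves 2 samples, so there are no error bars. For Pol II the points of both conditions lie furthest apart at HOXA5, followed by HOXA6. For H3K27ac they lie furthest apart at HOXC6, followed by HOXC10. At HOXC4, HOXC9, HOXC10 and HOXC12 they lie further apart for H3K27ac than for Pol II, and at HOXC5, HOXC6, HOXC8 and HOXC11 the reverse.

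HOXB held the longest region of the H3K27ac lists. It ran from chr17:48545044-48652785 without induction, 107.7 kb from the 5′ end of HOXB2 across HOXB3 to HOXB9, and 26.4 kb beyond HOXB9 on the side of HOXB13. It ranked first by length among 78005 regions, whose median length was 1159 bp. In the induced list the region chr17:48545187-48652812, 107.6 kb long, again ranked first. It held 147 summits in each list. Their median fold enrichment, the authors' ratio of signal to local background, was 19.2 where that of all summits of the list was 7.08, and in the induced list 25.5 where that of all summits was 7.03. Folds depend on the depth and input of each list, so the change between lists is not read as a change in the cells.

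Pol II lay over the same stretch of HOXB. Its longest region ran from chr17:48584969-48648667, 63.7 kb over the upstream part of HOXB3, HOXB5, HOXB6, HOXB7, HOXB8 and HOXB9, and ranked first of 57247. The induced list had chr17:48585076-48648912, 63.8 kb, first of 50665. HOXB9, a posterior gene of thoracic skeletal patterning, had the highest Pol II summit of any HOX gene, where the fold was 44.5 uninduced and 52.6 induced and the −log10 q 419.5 and 356.7. The next, with folds of 42.6 and 47.5, lay just beyond the 5′ end of HOXB3, in the windows of both HOXB3 and HOXB5. HOXB4, known for expanding blood stem cells, was covered by Pol II to 99.7% and 100% but only at low folds, with a highest summit of 9.19 and 8.21. Coverage and height thus ranked these neighbours differently.

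The ends of HOXB stood apart from its middle. HOXB1 had H3K27ac over 6.75% and 6.49% of its window, no H3K27ac at its start, and no Pol II. HOXB2, a hindbrain gene, was covered by Pol II over 88.0% and 79.3% of the gene itself while H3K27ac covered 2.69% and none of it. HOXB13, which lies apart from the other HOXB genes and is known in the distal colon and the prostate, had H3K27ac over 58.0% and 59.0% of its window and Pol II over 41.1% and 36.7%. Its start lay under an H3K27ac region at chr17:48727486-48730256 with a fold of 32.9, and a Pol II region with a fold of 30.6; the induced regions there had folds of 31.3 and 21.5.

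HOXA carried the second longest H3K27ac region of the uninduced list. It ran from chr7:27109204-27196807, 87.6 kb with 115 summits of median fold 16.6, and overlapped the 9 genes from HOXA3 to HOXA13. The induced list gave 3 regions over the same stretch, separated by gaps of 156 and 95 bp. The longest of these, chr7:27134616-27196834, was 62.2 kb long and was number 4 by length. The bases themselves were nearly the same: 99.3% of the H3K27ac bases in the uninduced HOXA windows were also in induced regions. Another region, 15.6 kb long, began after a gap of 394 bp within HOXA13, a hindgut and digit gene, and went on beyond it.

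Pol II was broken up more in HOXA than in HOXB, with 35 regions without induction and 38 with it, against 13 in either HOXB list. HOXA9, a gene of blood progenitors and leukaemia, had the highest Pol II window coverage of the cluster, 94.6% and 94.8%. HOXA4 had the lowest, 67.2% and 69.3%, although H3K27ac covered 100% and 99.2% of its window. HOXA5, a lung patterning gene, held the highest Pol II summit, where the fold was 36.7 uninduced and 35.1 induced and the −log10 q 265.9 and 204.2. The highest H3K27ac −log10 q of the cluster was 264.8 at HOXA9 in the uninduced list and 283.2 at HOXA10, a uterine and limb patterning gene, in the induced list.

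HOXA2, which patterns the hindbrain and the neural crest, showed Pol II without matching H3K27ac over the gene itself. Pol II covered 99.8% of the gene without induction and 99.1% with it, and H3K27ac 38.03% and 37.1%. Its start touched a Pol II region in both lists and no H3K27ac region. In its window H3K27ac covered 49.9% and 49.1%. Past its 3′ end both marks lay together without induction, H3K27ac at a fold of 27.8 and Pol II at 27.5. HOXB2, of the same group, also had more Pol II than H3K27ac over the gene itself, but its start touched an H3K27ac region in both lists.

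**Figure D4:**
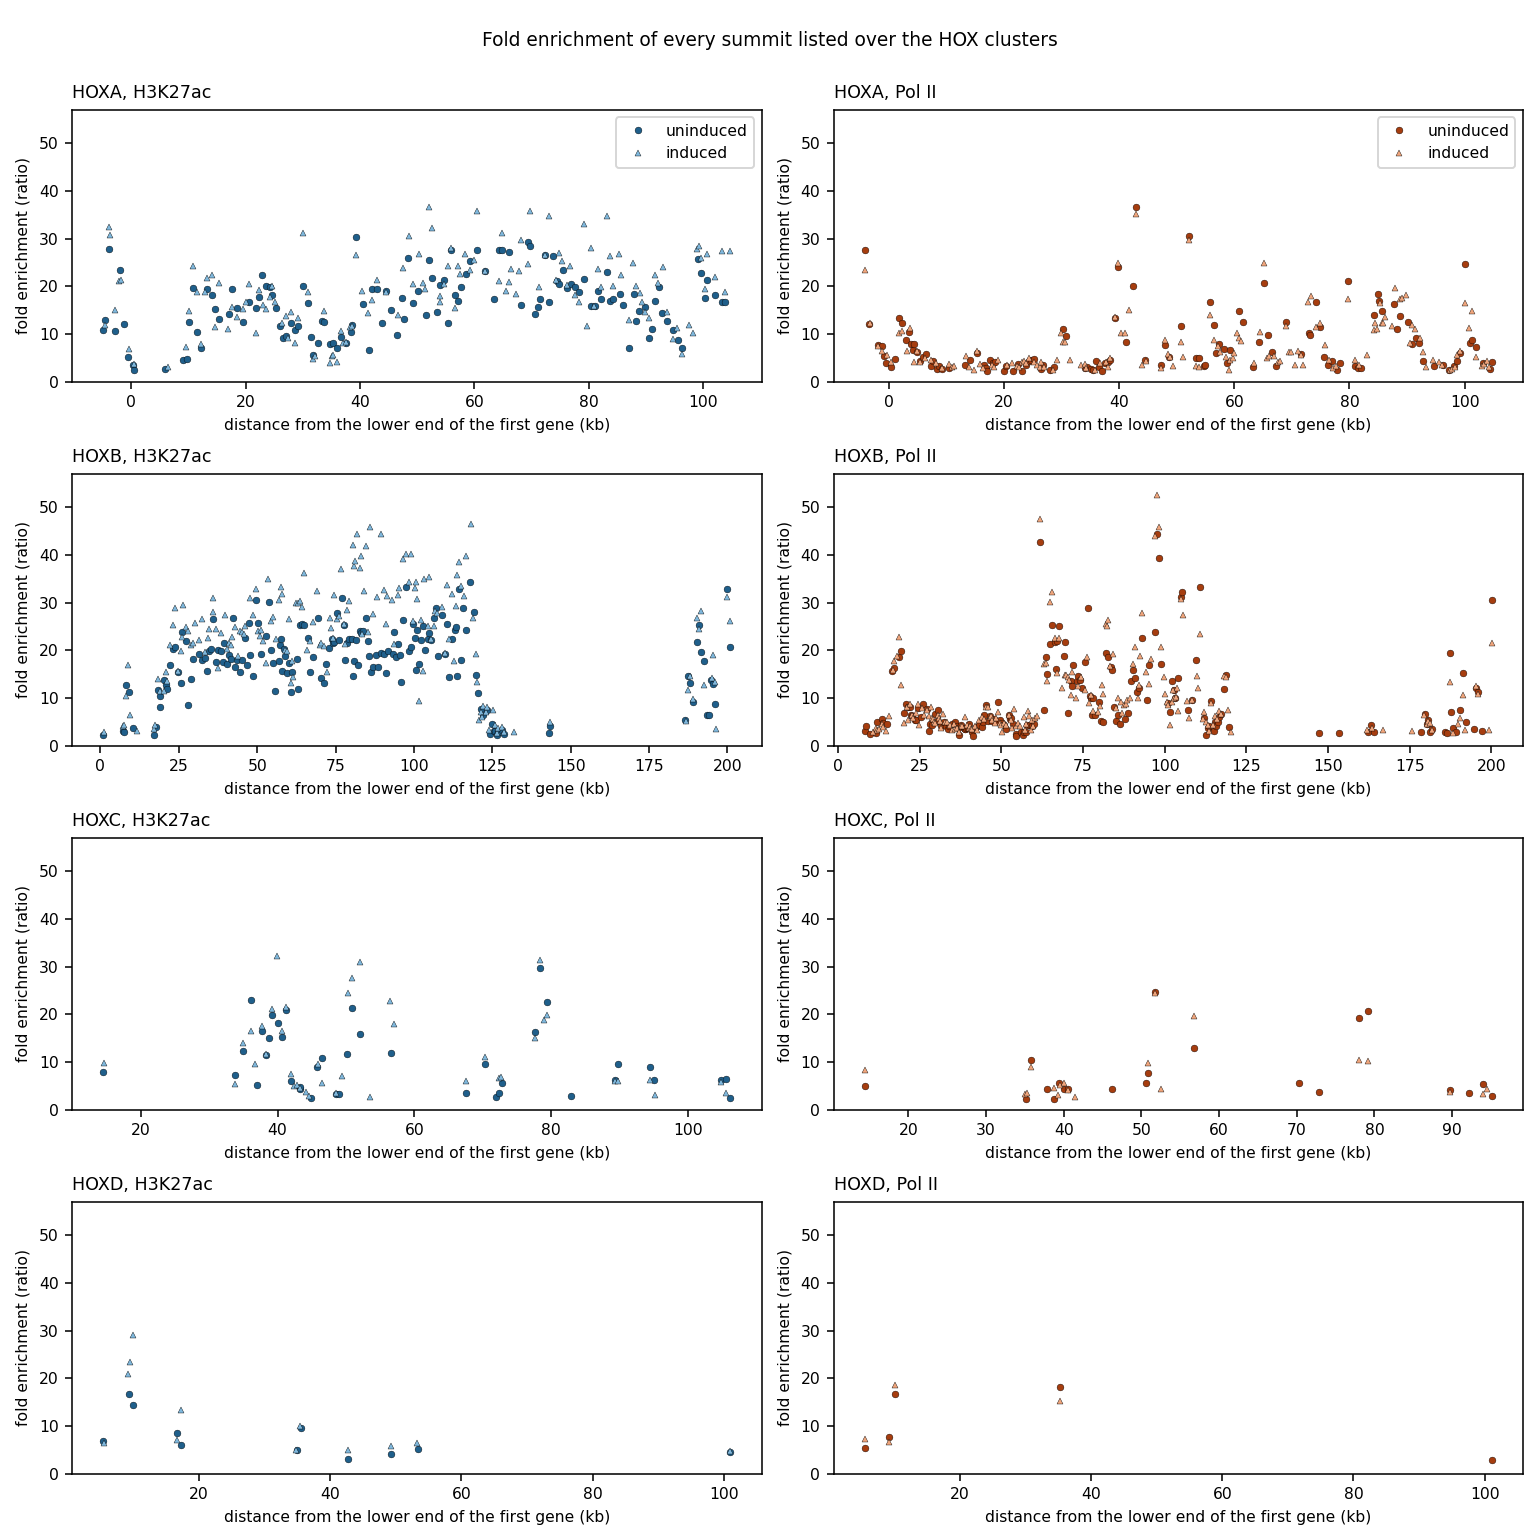
Fold enrichment (y axis, the authors' ratio) of every summit listed over each cluster, against the distance in kb from the lower end of the first gene, for H3K27ac (left) and Pol II (right), with circles for uninduced and triangles for induced cells. HOXB Pol II summits stay at or below 9.19 uninduced and 8.21 induced around HOXB4 and reach their highest fold of 44.5 and 52.6 at HOXB9; HOXC and HOXD hold few summits.

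HOXC was marked in islands. HOXC11, a posterior limb gene, was covered by H3K27ac to 72.1% and 68.8%, the highest of the cluster without induction, and by Pol II to 31.99% and 24.7%, the highest in both lists. Its H3K27ac region chr12:53972018-53982481 was 10.5 kb long with a fold of 22.99. HOXC10, a hindlimb gene, had H3K27ac over 68.0% and 73.4% and was highest with induction. A Pol II region at its 3′ end had folds of 24.7 and 24.4. The start shared by the long HOXC4, HOXC5 and HOXC6 entries lay under the highest H3K27ac summit of the cluster without induction, at chr12:54015832-54018967 where the fold was 29.7 and the −log10 q 216.0. In the induced list that region had 31.4 and 186.3. The Pol II region there had a highest fold of 20.7 uninduced and 10.4 induced. Its highest −log10 q, 157.9 uninduced and 60.9 induced, was in the uninduced list at another summit, of fold 19.3. HOXC12 and HOXC9 had regions only in their flanks, and HOXC13 had none.

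HOXD held 7 H3K27ac regions without induction and 8 with it, and 4 and 3 Pol II regions. The strongest lay between HOXD13, a digit and hindgut gene, and HOXD12, at chr2:176096032-176098348 where the highest H3K27ac fold was 16.6 uninduced and 29.2 induced and the highest −log10 q 124.2 and 167.6. Pol II there had folds of 16.8 and 18.6. HOXD12 had the highest H3K27ac coverage in HOXD, 29.2% and 27.5%, though neither mark lay on the gene itself. Its window held that region and H3K27ac on the other side of the gene, at chr2:176103779-176105164 in the uninduced list. The strongest region lay in the HOXD13 window too, which was covered to 16.6% and 15.3%, and HOXD13 is the longer gene (8458 against 2695 bp). HOXD13 and HOXD9 had both marks at their starts. HOXD9 Pol II had folds of 18.1 and 15.2 where its H3K27ac had 9.66 and 10.0. HOXD1 had a short H3K27ac region with folds of 4.62 and 4.83, and a Pol II region of fold 2.87 and −log10 q 2.67 in the uninduced list alone.

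The starts of the genes were touched more often in HOXA and HOXB than in HOXC and HOXD. H3K27ac touched the start of 27 of the 38 HOX genes in both lists. By cluster it was 9 of 10 in HOXA and in HOXB, 6 of 9 in HOXC and 3 of 9 in HOXD. Pol II touched 27 without induction and 24 with it, and the 3 that differed were HOXC8, HOXC10 and HOXD1. Over all 15812 genes with a RefSeq promoter window, 64.3% touched H3K27ac in each list, and 64.6% and 63.5% touched Pol II. Starts came from RefSeq promoter windows for 20 HOX genes and from the 5′ end of the gene entry for the others. HOXC4, HOXC5 and HOXC6 share a start, which is counted once for each gene. The HOX and all-gene shares were thus not measured in quite the same way, and no difference is read between them. HOXC11 had H3K27ac at its start and no Pol II region there, and HOXA2 the reverse.

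Between the conditions no HOX window was over 10 percentage points lower or higher in H3K27ac coverage in the induced list, against 0.350% and 0.275% of all genes. At any size 17 windows were lower and 6 higher, that is 44.7% and 15.8%, where 44.7% and 35.1% of all genes were. Coverage has a ceiling: 12 HOX windows were at 100% in both H3K27ac lists, so the share that was higher cannot be compared with that of all genes. Of the 34 uninduced regions 32 overlapped an induced one, 94.1% (Wilson 95% interval 80.9 to 98.4), against 85.5% of the whole list. In the other direction it was 36 of 38, 94.7% (82.7 to 98.5), against 87.7%. The intervals cover counting error only. The 4 regions without a partner were weak, with folds of 2.75 to 3.09.

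Pol II coverage was over 10 points lower in the induced list at 1 HOX gene, HOXA5, and higher at none, where 3.90% of all genes were lower and 0.0250% higher. HOXA5 went from 91.7% to 75.6% of its window. The gene itself was covered to 100% in both lists; a 10.5 kb region, chr7:27135318-27145865, gave way to a 7.45 kb region, chr7:27137673-27145121, and small pieces. At any size 18 HOX windows, 47.4%, were lower and 9, 23.7%, higher, against 65.6% and 11.01% of all genes; 5 HOX windows were at 100% and 6 at 0 in both Pol II lists. The induced Pol II list was also the shorter, 50665 regions against 57247, and its part in these differences was not tested.

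The choice of window decided which HOX genes passed 10 points for Pol II. Counting the gene alone, 4 were lower and HOXA5 was not among them, where 5.15% of all genes were lower. Pol II covered 56.0% and 20.3% of HOXA6, 93.0% and 64.5% of HOXA7, 60.7% and 34.1% of HOXC11, and 26.7% and none of HOXC8, a thoracic patterning gene. With a window of 1 kb 5 were lower (4.80% of all genes): HOXA6, HOXA7, HOXC8, HOXC11 and HOXD1. With regions of −log10 q of at least 5 it was 3 (4.61%): HOXA5, HOXA6 and HOXB2. No HOX gene was past 10 points under every one of these settings.

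Among the 4 clusters, uninduced Pol II regions without a partner were most frequent in HOXC. In all 54 of 65 uninduced HOX regions, 83.1% (72.2 to 90.3), overlapped an induced region, against 69.6% of the whole list, and 63 of 66 induced regions, 95.5% (87.5 to 98.4), overlapped an uninduced one, against 89.2%. Of the 11 uninduced regions without a partner 5 lay in HOXC, and their folds were at most 5.57. That highest value belonged to the start of HOXC8 at chr12:54008960-54009537, and a region over the start of HOXC10 at chr12:53984811-53985274 had 4.41. HOXC held 13 uninduced Pol II regions in all. Since 69.6% of the whole uninduced list had a partner, regions without one were not particular to HOXC. In HOXC 67.5% of the uninduced Pol II bases were shared with the induced list, against 90.2% in HOXA, 97.5% in HOXB and 81.4% in HOXD. The share of bases over the whole list was not computed.

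Both marks coincided in the HOX clusters. Of the Pol II regions 60 of 65 lay on H3K27ac without induction, 92.3% (83.2 to 96.7), against 62.3% of the whole list, and 61 of 66 with it, 92.4% (83.5 to 96.7), against 62.3%. The reverse held less often: 23 of 34 H3K27ac regions touched Pol II without induction, 67.6% (50.8 to 80.9), and 21 of 38 with it, 55.3% (39.7 to 69.9), against 39.8% and 33.9%. A region over 80 kb long touches more of the other mark than a short one, and HOX regions include the longest, and the part of length in these shares was not tested.

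The 27 RefSeq promoter windows of 20 HOX genes, each 250 bases before to 50 after a start, were compared with 22132 windows of 15812 genes. The median ratio of observed to expected CpG was 0.85 for HOX and 0.74 for all. Of the HOX windows 19 touched H3K27ac without induction, and their median ratio was 0.78, against 0.86 for the 8 that did not. The TCF letters CTTTGAA or CTTTGAT, on either strand, were in 3 HOX windows, those of HOXA11, HOXB1 and HOXD12, and in 5.49% of all windows. The CDX letters TTTATGG or TTTATTG were in 5, or 18.5%, against 4.83%, and TATAAA was in 5 against 9.46%. HOXC4 and HOXC5 share 1 of the 27 windows, which is counted once for each gene, and 7 belong to HOXA3. The 5 windows with CDX letters include the shared window under both names. The others are that of HOXD8 and the HOXA3 windows chr7:27119546-27119845 and chr7:27150901-27151200. Matching letters are a description and show no binding.

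The clusters also hold microRNA genes, which were looked up after the HOX values were seen. Mature sequences are from RefSeq, with the seed, bases 2 to 8, in capitals, and they show that the HOXA, HOXB and HOXC clusters each encode a miR-196 with the same seed. MicroRNAs of this family are known to target HOX transcripts.
hsa-miR-196b-5p: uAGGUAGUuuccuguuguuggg
hsa-miR-196a-5p: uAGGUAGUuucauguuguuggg
hsa-miR-10a-5p: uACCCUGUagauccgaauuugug
hsa-miR-10b-3p: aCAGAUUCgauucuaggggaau
The hairpins of MIR196B in HOXA, and of MIR196A1, MIR10A and MIR3185 in HOXB, lay in regions of all 4 lists. MIR196A2 in HOXC lay under H3K27ac in both lists and under no Pol II region. MIR615 in HOXC lay under H3K27ac in both lists and under Pol II in the uninduced list alone. MIR7704 in HOXD lay under Pol II in the uninduced list alone and under no H3K27ac region. MIR10B, between HOXD8 and HOXD4, lay in none of the 4 lists, as did the HOXD4 gene beside it.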

How the data were processed

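H3K27ac and Pol II were measured by ChIP-seq in DLD1 (DNTCF) cells, with 40 to 55M single-end reads of 75 bp for each sample, per the labels' protocols. The tools named in the submitters' processing notes, without role or order, include MACS2 2.1.1.20160309, deepTools 3.5.0, SAMtools 1.10 and BWA 0.7.17-r1188. Caller settings were not given in the sources used here, nor was whether the 2 samples of a group were pooled before calling. These notes name hg19 and hg38; chromosome 17 regions reach position 83228308, which lies past the end of that chromosome in hg19, so positions are GRCh38. For each summit the authors' deposited lists give a fold enrichment (a ratio) and a −log10 q, which begins at 1.30. These values served only to describe regions within a list.

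Uninduced and induced lists held 177089 and 180063 H3K27ac summits and 109014 and 94939 Pol II summits. Only the 22 autosomes and X were used, which dropped at most 0.603% of the summits. Summits of the same region were merged to 1 region with its highest values. Coverage is the percent of bases of a gene and 5 kb on either side that lie in regions; a difference over 10 percentage points counted as lower or higher, and regions overlapped from 1 bp. Coverage depends on where signal passed the caller's threshold and so on depth. Python 3.11.15 with pandas 2.3.3, numpy 2.4.6 and SciPy 1.17.1 was used, and the interval steps were tested on simulated regions. No column of per-sample values was left unmatched (0).

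With 1 list per group no test was run. Members and lists were chosen with earlier results of these data known, and 1 gene of the rule and 1 of a list are not reported here. Genes named are those with the highest and lowest coverage of each cluster and mark, those past 10 points, those without a mark, and those with the highest −log10 q in a cluster. The level of 90%, the length of 10 kb, region lengths, noncoding RNAs and microRNAs were looked at after values were seen, and genes named for these were chosen then. Alternatives tried were regions of −log10 q of at least 5, lists of equal length, windows of 1 kb or none, and other overlap rules. The RNA-seq samples and signal tracks were not used here.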

Additional observations from a re-analysis of the deposited data

How the results depend on the processing

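Of 76 values recomputed under another setting, 54 stayed within the limits set for them, 22 moved further and 0 reversed. The limits differed by kind of value and were wider for counts of genes. Counting the gene alone, 30 HOX genes had an H3K27ac region uninduced and 29 induced, where the window gave 35 in each list. For Pol II it was 28 uninduced and 26 induced, where the window gave 32 and 31. These changes were within the limits. The count of HOX genes with Pol II coverage over 10 points lower was 1 (HOXA5), and it was 3 with regions of −log10 q of at least 5 (HOXA5, HOXA6, HOXB2), 5 with a window of 1 kb (HOXA6, HOXA7, HOXC11, HOXC8, HOXD1) and 4 with the gene alone. The same settings gave 4.61%, 4.80% and 5.15% of all genes. With regions of −log10 q of at least 5, H3K27ac coverage (uninduced, induced) was 92.3% and 92.1% in HOXA, 79.7% and 80.1% in HOXB, and 25.9% and 24.9% in HOXC. Pol II coverage was then 78.8% and 75.8% in HOXA, 78.1% and 77.9% in HOXB, 12.2% and 8.85% in HOXC, and 3.45% uninduced in HOXD. With lists of equal length, uninduced Pol II coverage was 81.9% in HOXA, 78.8% in HOXB and 3.45% in HOXD. The share of uninduced H3K27ac regions with a partner was 100% at −log10 q of at least 5. Counting regions within 1 kb as shared, it was 92.3% of uninduced and 100% of induced Pol II regions. Stricter limits drop regions and so can lower coverage; the cause of the other moves was not tested. No paired analysis was possible because 1 list serves both samples of a group, so no replicate could be left out or paired either. Depth sets which weak regions are listed, and a region absent from a list was not detected at that depth.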

Other observations

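Partners and regulators of the HOX genes were described in the same way. TALE homeodomain proteins bind DNA together with HOX proteins: 8 of 9 of their genes had H3K27ac in the window without induction, at a median coverage of 4.01%. PBX4 was highest at 28.2%, and MEIS1 had no region of either mark. PBX2 was over 10 points lower for Pol II in the induced list, at 35.1% against 49.6%. Of the 8 ParaHox and EVX genes, relatives of the HOX genes, 5 had H3K27ac. CDX2, the regulator of intestinal identity, was covered to 94.0% and 95.2% by H3K27ac and 72.5% and 73.0% by Pol II, while CDX4, GSX1 and GSX2 had no region. EVX1, which lies beyond HOXA13, was covered by Pol II to 33.6% and 18.8%. All 19 genes of chromatin regulators of HOX clusters had H3K27ac, at a median of 23.03% with induction, and RNF2, a Polycomb gene, was lowest there at 2.36%. Of 14 genes around the clusters, PRAC1 next to HOXB13 was highest at 76.4%, with Pol II over 57.1% and 46.6%, and LNPK next to HOXD lowest at 2.11%. PBX2, EVX1 and PRAC1 were each the 1 gene over 10 points lower for Pol II in their list, and 0 were higher.

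Of 16 noncoding RNA genes of the clusters, chosen after values were seen, 15 had H3K27ac and 14 Pol II without induction. HOTTIP beyond HOXA13 was covered to 97.7% and 97.1% by H3K27ac, and HOXB-AS3 to 100% by both marks in each condition. HOXC-AS3 in HOXC was covered to 77.3% and 78.6% by H3K27ac, more than any HOXC gene, HOTAIR to 35.1% and 33.8%, and HOXC13-AS had no region. HOXA-AS3 Pol II coverage was 92.8% without induction and 79.3% with it.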
